A study of Mus musculus with 4 samples.

Results

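The genes described here are 10 mouse genes of the acute phase response and of iron handling, followed through dendritic cells given 4 different culture media. They were chosen by symbol, as Lcn2, Saa3, Orm1, Hp, Ptx3, Hamp, Fth1, Ftl1, Tfrc and Hmox1, and are 10 of the 13685 genes listed in the deposited tables. The cells were grown from bone marrow of C57BL/6 mice aged 4 weeks. All 4 groups shared 7 days of culture in IL-4 and GM-CSF, each at 10 ng/ml. One group then received Wnt2, a secreted Wnt ligand. One received CAF.CM, culture medium of cells that the labels name only as CAF (the usual abbreviation of cancer-associated fibroblast), that had first been incubated with a Wnt2 antibody. One received CAF.CM itself, and the control cells were left untreated in control medium. The dose of Wnt2, the amount of antibody and the length of treatment are not stated in the labels, and no group with a control antibody was analysed here. Total RNA was depleted of ribosomal RNA and sequenced as stranded libraries.

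The series text speaks of triplicates, but each group has 1 column of values, and whether that column pools several cultures is not stated in the labels. There is therefore no replicate check on any difference below, and no test was made. Values are normalized CPM, reads scaled to a common library size. Each log2 ratio carries a 95% interval, written in square brackets, that covers counting error only. A gene is called higher or lower when its ratio reaches 2-fold, and a smaller difference is given by its value.

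The acute phase response is the change in secreted proteins that follows infection or injury, driven mainly by the cytokines IL-6 and IL-1 acting through the factors STAT3, C/EBP and NF-κB. Part of it withdraws iron from microbes: lipocalin-2 captures bacterial siderophores, haptoglobin binds free hemoglobin, and hepcidin stops iron leaving cells through ferroportin. Inside the cell iron is stored in ferritin, taken up through the transferrin receptor and released from heme by heme oxygenase-1. In myeloid cells these genes answer both to inflammatory signals and to the iron and heme that the cells take in.

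The iron genes carry a control element in their own messenger RNA. When iron is scarce, iron regulatory proteins bind the iron-responsive element, a short hairpin; bound to a 5′ UTR it blocks translation of ferritin, and bound to the 3′ UTR of the transferrin receptor it protects the transcript from decay. The letters of this hairpin are shown because they mark which members share this form of control. They were searched as C, a stem of 5 bases, the loop CAGTGN with no G at its last base, and 5 bases that pair with the stem. The sequences are from the GENCODE M21 transcripts (GRCm38), with the loop in capitals.
Fth1, 5′ UTR, chr19:9982738-9982754, + strand: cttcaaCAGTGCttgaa
Ftl1, 5′ UTR, chr7:45459785-45459801, - strand: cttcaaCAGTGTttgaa
Tfrc, 3′ UTR, chr16:32631225-32631241, + strand: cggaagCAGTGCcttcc
Tfrc, 3′ UTR, chr16:32631604-32631620, + strand: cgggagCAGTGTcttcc
Tfrc, 3′ UTR, chr16:32631669-32631685, + strand: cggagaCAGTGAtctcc
Tfrc, 3′ UTR, chr16:32631716-32631732, + strand: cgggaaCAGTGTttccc
In their principal transcripts Fth1 and Ftl1 held 1 such hairpin each, differing in the loop's last base, and Tfrc held 4. The other 7 members held none by these letters. The counts were the same in the longest transcript of each member. Over the 13661 listed genes matched to the annotation, 155 (1.13%) held at least 1 in their longest transcript, and Tfrc was the only gene with more than 1 there.

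The promoters of 4 members are shown, those called higher or lower with CAF.CM among the members with a RefSeq window. Orm1 and Hmox1 were also called higher but had no such window. The letters are those before the start of the RefSeq transcript (build GRCm38.p6), without bases that the annotation places in a UTR. Capitals mark matches to the searched motifs.
Lcn2, chr2:32387798-32387989, - strand: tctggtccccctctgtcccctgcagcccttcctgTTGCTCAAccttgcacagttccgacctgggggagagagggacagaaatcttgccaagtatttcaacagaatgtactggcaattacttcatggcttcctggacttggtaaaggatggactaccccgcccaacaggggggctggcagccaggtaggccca
Saa3, chr7:46715701-46715926, - strand: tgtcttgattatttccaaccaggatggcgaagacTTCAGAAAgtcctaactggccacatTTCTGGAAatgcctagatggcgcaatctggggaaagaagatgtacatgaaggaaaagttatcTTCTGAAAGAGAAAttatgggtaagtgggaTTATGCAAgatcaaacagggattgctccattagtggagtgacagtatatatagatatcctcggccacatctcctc
Hamp, chr7:30944033-30944279, - strand: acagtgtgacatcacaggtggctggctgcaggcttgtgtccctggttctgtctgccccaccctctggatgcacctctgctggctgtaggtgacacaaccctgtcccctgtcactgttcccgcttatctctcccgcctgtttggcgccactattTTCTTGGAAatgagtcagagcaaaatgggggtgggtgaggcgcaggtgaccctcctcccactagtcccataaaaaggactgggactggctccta
Ptx3, chr3:66219637-66219886, + strand: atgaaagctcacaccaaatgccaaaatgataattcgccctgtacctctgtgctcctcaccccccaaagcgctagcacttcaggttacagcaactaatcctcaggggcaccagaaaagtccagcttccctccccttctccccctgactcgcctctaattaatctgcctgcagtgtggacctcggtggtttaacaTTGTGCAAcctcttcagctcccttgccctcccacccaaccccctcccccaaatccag
Of the Lcn2 letters, 139 of 192 also lie in exons of a longer annotated Lcn2 transcript. Motifs were searched on both strands in windows of 250 bases before each RefSeq start. The C/EBP letters TTNNGNAA were found at -216 in Lcn2, at -57 in Ptx3 and at -216, -191, -129 and -99 in Saa3, counted from the start to the site's first base. They were common: 36.8% of all 32851 windows held them, and 6 of the 9 windows of the members. The interferon element, GAAA repeated after a gap of 2 bases, lay at -125 in Saa3, overlapping the C/EBP match at -129, and 2.98% of all windows held it. The STAT letters TTCNNNGAA lay at -97 in Hamp, and 7.02% of all windows held them. Neither the NF-κB letters, GGG and TTTCC with 2 bases between (1.41% of all windows) nor the NRF2 letters TGACNNNGC (10.2%) were in these windows of any member. The TATAAA letters were in 12.4% of all windows and in 1 of the members' windows, an upstream start of Fth1. RefSeq windows were matched for 7 of the 10 members, and Orm1, Hmox1 and Hp were not among them.

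With CAF.CM, Lcn2, Saa3, Orm1, Hamp and Hmox1 were higher than in control medium, Ptx3 was lower, and Hp, Fth1, Ftl1 and Tfrc stayed within 2-fold. That is 5 of 10 members higher, where 6.68% of the 13329 listed genes were, and 1 of 10 lower, where 8.69% were. The median log2 ratio was 1.47 over the members and -0.04 over all listed genes. With the antibody, CAF.CM gave 1 of 10 members higher than CAF.CM alone, Hamp, against 1.02% of 13072 listed genes, and 2 lower, Hp and Ptx3, against 3.65%. Wnt2 itself gave 0 of the 9 members listed higher than in control medium, against 2.87% of 13120 listed genes, and 3 lower, Saa3, Hp and Ptx3, against 2.93%. The Wnt2 and CAF.CM comparisons share the control library, and the antibody and CAF.CM comparisons share the CAF.CM library, so they are not independent. The members were chosen with earlier results of these data known, so these counts and medians describe them and test nothing.

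Levels of different members were compared per kilobase of the longest transcript. With CAF.CM the highest were Ftl1 (11300 CPM per kilobase), Fth1 (7637), Lcn2 (1214), Hmox1 (1159) and Saa3 (1057). In control medium they were Ftl1 (9537), Fth1 (4770), Hmox1 (249), Hp (217) and Saa3 (127), while Lcn2 had 2.95 CPM per kilobase. The order among the first 5 rests on the length used. With CAF.CM, per kilobase of the principal transcript, Fth1 (16950) lay above Ftl1 (11300) and Saa3 (4191) above Lcn2 (1823) and Hmox1 (1159). Per kilobase of all exons together, Lcn2 had 636, below Hmox1 (1038) and Saa3 (893).

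**Figure D1:**
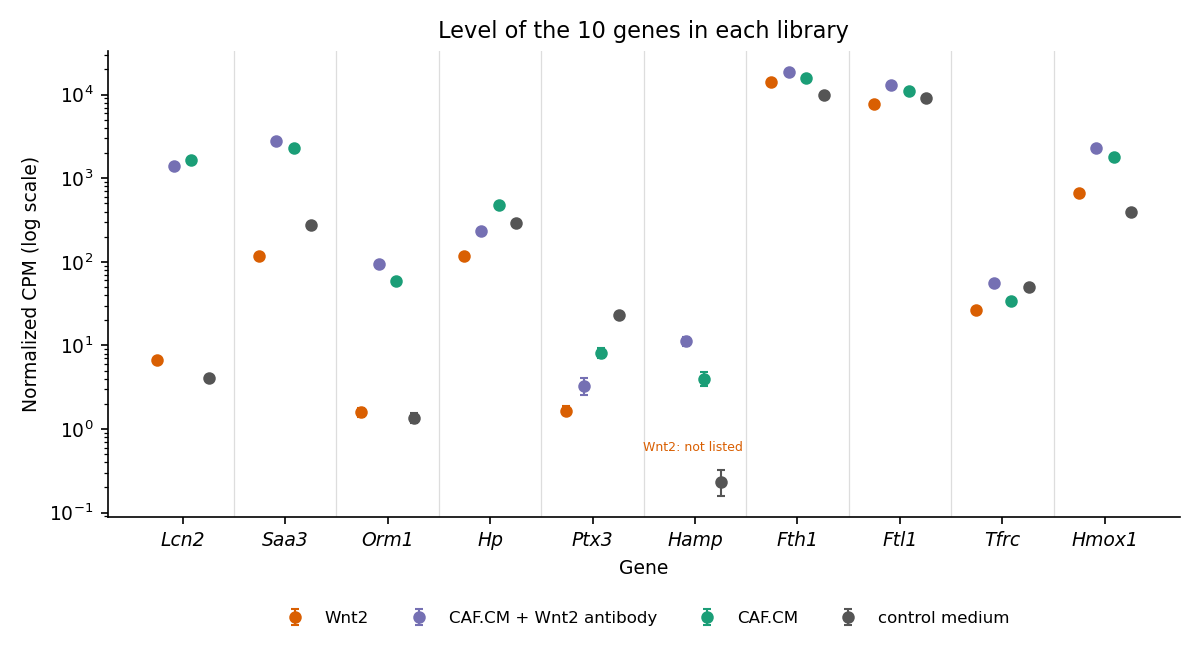
Level of the 10 genes in each library, in normalized CPM on a log axis, with 1 point per library and bars for the 95% counting interval (hidden by the point where narrow). Lcn2 and Orm1 sit low in Wnt2 and control medium and high in both CAF.CM libraries, while Ptx3 is highest in control medium at 23.1 CPM.

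**Figure D2:**
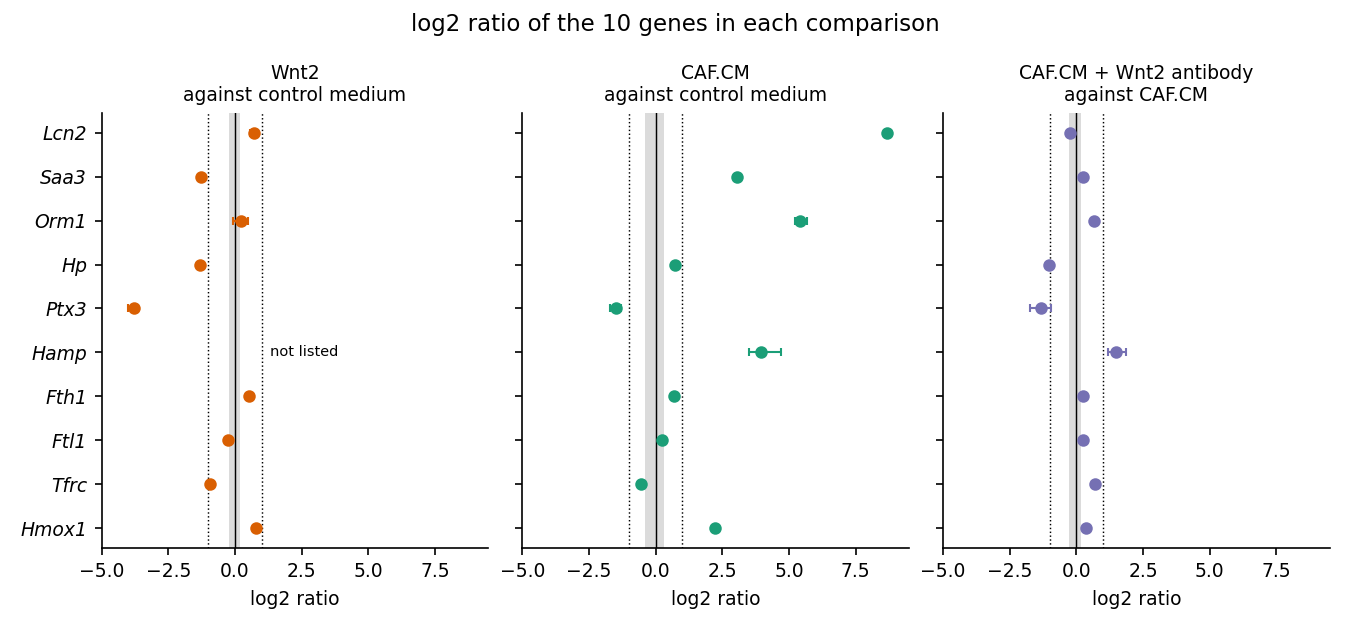
log2 ratio of each gene in the 3 comparisons, with bars for the 95% counting interval, dotted lines at 2-fold and a grey band for the middle 50% of all listed genes. Lcn2 reaches 8.68 for CAF.CM against control medium and -0.25 for CAF.CM with antibody against CAF.CM.

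Lcn2 (ENSMUSG00000026822, chr2:32384633-32388252, minus strand, 6 exons in its principal transcript) encodes lipocalin-2. It was found at 6.72 CPM with Wnt2, 1398 CPM with CAF.CM and antibody, 1668 CPM with CAF.CM and 4.05 CPM in control medium. The 2 libraries with CAF.CM were high and the 2 without it low, with nothing between. Against control medium the CAF.CM level was 410-fold higher, a log2 ratio of 8.68 [8.57 to 8.81], and only 1 of the 13329 listed genes had a larger ratio. The adjusted p in the authors' deposited table was 4.56e-196 for this pair, though the spread it rests on is not stated for 1 library per group. Wnt2 gave a log2 ratio of 0.73 [0.58 to 0.88], within 2-fold. The antibody level was 1.19-fold lower than CAF.CM, a log2 ratio of -0.25 [-0.28 to -0.23], and still 343-fold above control medium.

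Saa3 (ENSMUSG00000040026, chr7:46711998-46715700, minus strand, 4 exons) encodes serum amyloid A3, the member of its family made largely outside the liver, macrophages included. Its level was 117 CPM with Wnt2, 2794 CPM with CAF.CM and antibody, 2326 CPM with CAF.CM and 279 CPM in control medium. Unlike Lcn2 it was already well detected in control medium, and it was lower with Wnt2 and higher with CAF.CM. The log2 ratio was -1.25 [-1.28 to -1.23] for Wnt2 and 3.06 [3.04 to 3.08] for CAF.CM, so that CAF.CM stood 19.9-fold above Wnt2. The antibody level differed from the CAF.CM level by a log2 ratio of 0.26. Its near copies Saa1 and Saa2 share 5.71% of the 31-base words of its transcript, and neither copy was listed.

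Orm1 (ENSMUSG00000039196, chr4:63344560-63348163, plus strand, 6 exons) encodes the plasma carrier orosomucoid, also called alpha-1-acid glycoprotein. It stood at 1.58 CPM with Wnt2, 94.3 CPM with CAF.CM and antibody, 59.0 CPM with CAF.CM and 1.36 CPM in control medium. Again the libraries fell into a low and a high pair. CAF.CM was 42.5-fold above control medium (log2 ratio 5.41 [5.22 to 5.66]), and the antibody level was 1.60-fold above CAF.CM. For Wnt2 the interval of the log2 ratio, -0.06 to 0.49, included 0. Orm1 shares 27.5% of its 31-base words with Orm2, and how such reads were divided is not stated, so its value is uncertain. Orm2 itself was listed at 2.41 CPM with antibody, 2.61 CPM with CAF.CM and 0.049 CPM in control medium, which rests on 7 reads.

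Hp (ENSMUSG00000031722, chr8:109575128-109579172, minus strand, 5 exons) encodes haptoglobin, the scavenger of free hemoglobin, which neutrophils also store in granules. It had 118 CPM with Wnt2, 233 CPM with CAF.CM and antibody, 479 CPM with CAF.CM and 292 CPM in control medium. Its order differed from that of Lcn2, Saa3 and Orm1: the antibody library lay below control medium and CAF.CM alone was highest. Hp was 2.47-fold lower with Wnt2 than in control medium (log2 ratio -1.30 [-1.33 to -1.28]) and 1.64-fold higher with CAF.CM (0.72 [0.69 to 0.75]). CAF.CM with antibody was 2.05-fold below CAF.CM (log2 ratio -1.04 [-1.08 to -0.99]), an interval that reaches inside 2-fold. Of the genes listed beside the members, Cp, which encodes the copper ferroxidase ceruloplasmin, had the same order at lower levels: 4.41 CPM with Wnt2, 11.2 CPM with CAF.CM and antibody, 25.04 CPM with CAF.CM and 15.4 CPM in control medium.

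Ptx3 (ENSMUSG00000027832, chr3:66219910-66225805, plus strand, 3 exons) encodes pentraxin-3, a soluble pattern recognition protein made by dendritic cells and macrophages. It was the one member highest in control medium. Its levels were 1.65 CPM [1.46 to 1.87] with Wnt2, 3.23 CPM [2.54 to 4.05] with CAF.CM and antibody, 8.18 CPM [7.12 to 9.36] with CAF.CM and 23.1 CPM [22.3 to 23.9] in control medium. None of these counting intervals overlapped. Ptx3 was 13.8-fold lower with Wnt2 (log2 ratio -3.79 [-3.99 to -3.62]), the sixth lowest ratio of 13120 listed genes. CAF.CM was 2.81-fold below control medium (-1.49 [-1.70 to -1.29]). CAF.CM with antibody was 2.49-fold below CAF.CM (-1.32 [-1.74 to -0.95]) rather than nearer to control medium. The authors' deposited log2 fold changes of Ptx3, which rest on the same libraries, were -3.80 for Wnt2, -1.49 for CAF.CM and -1.34 for the antibody.

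Hamp (ENSMUSG00000050440, chr7:30942368-30944032, minus strand, 3 exons) encodes hepcidin, the peptide hormone that closes ferroportin and is made mainly by the liver. It was covered by 261 reads for CAF.CM with antibody, 103 for CAF.CM and 33 in control medium. These reads gave 11.2 CPM [9.92 to 12.7], 3.96 CPM [3.23 to 4.80] and 0.233 CPM [0.160 to 0.327] in the same order, with no overlap. Hamp was not listed in the Wnt2 table, whose genes all reached 1.002 CPM or more in one of its libraries. CAF.CM was 15.5-fold above control medium (log2 ratio 3.95 [3.51 to 4.70]), and CAF.CM with antibody was 2.81-fold above CAF.CM (1.49 [1.17 to 1.85]). No other member was called higher in both of these comparisons. Its copy Hamp2 shares 33.7% of its 31-base words and was not listed, so reads from either cannot be told apart there. Ferroportin, Slc40a1, the target of hepcidin, had 6.06 CPM with Wnt2, 5.73 CPM with CAF.CM and antibody, 3.15 CPM with CAF.CM and 7.48 CPM in control medium.

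Fth1 (ENSMUSG00000024661, chr19:9980598-9985098, plus strand, 4 exons) encodes the ferritin heavy chain, which oxidizes iron for storage, and Ftl1 (ENSMUSG00000050708, chr7:45457944-45459884, minus strand, 4 exons) the light chain, which helps to form the iron core. Both were among the 12 most abundant genes of every library by CPM. Fth1 had 14099 CPM with Wnt2, 18648 CPM with CAF.CM and antibody, 15748 CPM with CAF.CM and 9836 CPM in control medium, so control medium was lowest. Ftl1 had 7662 CPM with Wnt2, 13057 CPM with CAF.CM and antibody, 10943 CPM with CAF.CM and 9232 CPM in control medium, so Wnt2 was lowest. Together they made up 2.17% of listed CPM with Wnt2, 3.23% with CAF.CM and antibody, 2.76% with CAF.CM and 1.89% in control medium.

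All ferritin ratios were within 2-fold, but the chains did not move alike. For Wnt2 the log2 ratio was 0.52 for Fth1 and -0.27 for Ftl1. For CAF.CM it was 0.68 for Fth1 and 0.25 for Ftl1, and for the antibody 0.24 and 0.25. Fth1 reads per Ftl1 read therefore came to 1.840 [1.836 to 1.844] with Wnt2, 1.428 [1.422 to 1.435] with CAF.CM and antibody, 1.439 [1.432 to 1.446] with CAF.CM and 1.065 [1.063 to 1.068] in control medium. The chain ratio was thus highest with Wnt2, and the 2 CAF.CM libraries lay close together, at 1.428 and 1.439, with counting intervals that overlapped. For Ftl1, 94.9% of the 31-base words of the transcript also occur in 32 further genes of the annotation, and its level is uncertain for that reason. Those of the 32 that were listed held between 0.561% and 0.655% of the Ftl1 level. Fth1 shares 12.9% of its words, mainly with Gm6977.

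Tfrc (ENSMUSG00000022797, chr16:32608920-32632794, plus strand, 19 exons) encodes transferrin receptor 1, the entry route of transferrin iron. It had 26.4 CPM with Wnt2, 56.2 CPM with CAF.CM and antibody, 34.4 CPM with CAF.CM and 49.9 CPM in control medium. The antibody and control libraries were the high pair and Wnt2 the lowest. The log2 ratio was -0.92 [-0.98 to -0.86] for Wnt2 and -0.54 [-0.64 to -0.44] for CAF.CM. CAF.CM with antibody was 1.63-fold above CAF.CM (0.71 [0.58 to 0.83]). All 3 ratios stayed within 2-fold.

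**Figure D3:**
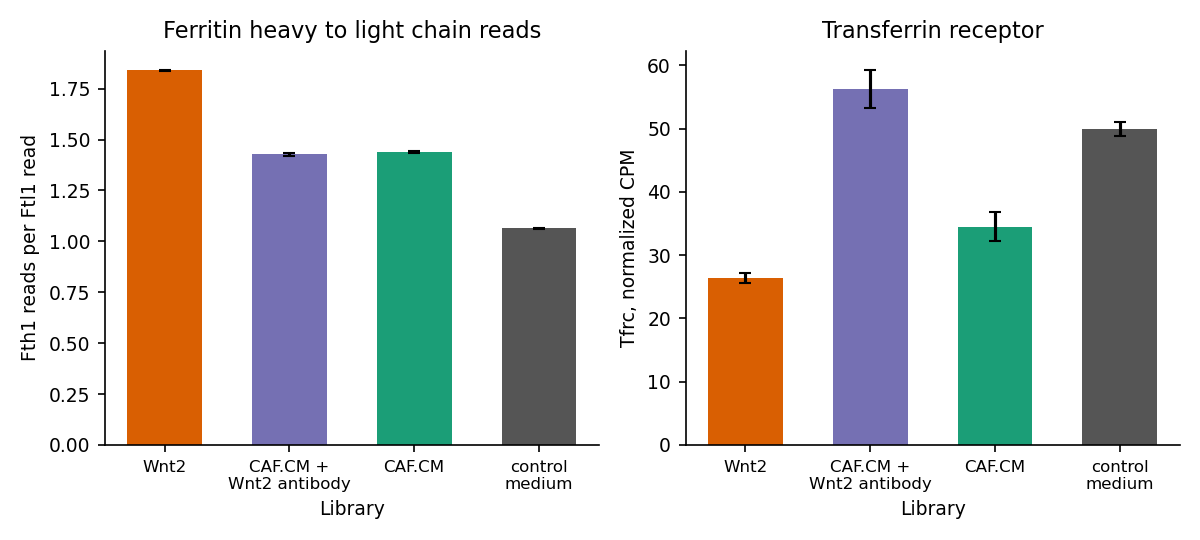
Fth1 reads per Ftl1 read (left) and Tfrc level in normalized CPM (right), with 1 bar per library and error bars for the 95% counting interval. The chain ratio is highest with Wnt2 at 1.840 and lowest in control medium at 1.065, while Tfrc is lowest with Wnt2 at 26.4 CPM.

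Hmox1 (ENSMUSG00000005413, chr8:75093621-75100589, plus strand, 5 exons) encodes heme oxygenase-1, the inducible enzyme that splits heme into iron, carbon monoxide and biliverdin. It reached 671 CPM with Wnt2, 2306 CPM with CAF.CM and antibody, 1818 CPM with CAF.CM and 391 CPM in control medium. Every treated library was above control medium. CAF.CM was 4.65-fold higher (log2 ratio 2.22 [2.20 to 2.23]), Wnt2 was 1.72-fold higher (0.78 [0.76 to 0.79]), and the antibody level was 1.27-fold above CAF.CM. Fth1 had the same order of libraries, and so did Orm1, whose Wnt2 and control levels did not differ beyond counting error. The authors' deposited log2 fold changes of Hmox1, which rest on the same libraries, were 0.78 for Wnt2, 2.22 for CAF.CM and 0.34 for the antibody.

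The other genes of these pathways were counted in 4 lists, which were also chosen with earlier results of these data known. Over all listed genes the shares higher and lower were 6.68% and 8.69% for CAF.CM, 2.87% and 2.93% for Wnt2, and 1.02% and 3.65% for the antibody, against which each list's counts are to be read. Among other acute phase proteins and their inducers, 9 of the 17 listed stood above control medium by 2-fold with CAF.CM and 0 below it, and the median log2 ratio was 1.00. The complement protease precursor Cfb had 1.95 CPM with Wnt2, 289 CPM with CAF.CM and antibody, 311 CPM with CAF.CM and 8.78 CPM in control medium, so, like Saa3, it was lower with Wnt2 and higher with CAF.CM. The cytokine Il6 had a CAF.CM log2 ratio of 3.70, Il1b of 3.12 and Socs3, the feedback inhibitor of STAT3 signalling, of 2.78. With Wnt2, 4 of 16 were higher and 2 lower (median 0.48). Il1b (2.30) and Socs3 (1.54) were higher there, and Cfb (-2.17) and Cp (-1.80) were lower. With antibody 1 of 16 was higher than in CAF.CM and 2 lower (median -0.10). The higher one was the metal-binding Mt2 (1.11), at 96.5 CPM with antibody against 44.5 CPM with CAF.CM, and its neighbour Mt1 had a ratio of 0.78. The lower ones were Cp (-1.15) and Socs3 (-1.05).

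In the list of iron uptake, export and sensing, with 20 listed, 2 were higher and 3 lower with CAF.CM (median -0.01), 2 were higher and 0 lower with Wnt2 (median 0.02), and of 19 listed 0 passed 2-fold with antibody (median 0.00). Tfr2, a second transferrin receptor, was higher with Wnt2 (log2 ratio 1.80) and with CAF.CM (1.15), at levels of 0.763 to 2.69 CPM. Slc25a37, the mitochondrial iron importer, was higher with Wnt2 (1.07) and with CAF.CM (1.28). With CAF.CM the lower genes were the endosomal ferrireductase Steap3 (-1.75), Slc40a1 (-1.24) and the transferrin receptor partner Hfe (-1.14).

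Genes of heme handling and of the NRF2 stress response did not follow Hmox1. With CAF.CM 0 of 29 listed were higher and 7 lower (median -0.23), with Wnt2 0 were higher and 2 lower (median -0.16), and with antibody 0 of 28 passed 2-fold (median 0.05). Those lower with CAF.CM included Bach1, the heme-sensing repressor of Hmox1 (-1.39), the NRF2 target Nqo1 (-1.12), the hemopexin receptor Lrp1 (-1.45) and the exporter Abcg2 (-2.40). Cd163, the receptor for haptoglobin bound to hemoglobin, had 0.115 CPM with CAF.CM, which rests on 3 reads, and 2.15 CPM in control medium, a log2 ratio of -3.96 [-6.51 to -2.66].

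Partners of pentraxins and of serum amyloid A were the list with the lowest median for CAF.CM, -2.15, with 2 of 11 higher and 7 lower. C1qb, a chain of the complement protein C1q that pentraxin-3 binds, had 58.0 CPM with Wnt2, 5.26 CPM with CAF.CM and antibody, 14.7 CPM with CAF.CM and 217 CPM in control medium. C1qc and C1qa were lower in the same comparisons. The receptor Fpr2, which binds serum amyloid A, differed from these, with log2 ratios of 1.87 for Wnt2, 3.79 for CAF.CM and -0.95 for the antibody. With Wnt2 3 of 11 were higher and 3 lower (median -0.13), and with antibody 0 of 10 were higher and 5 lower (median -1.01).

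**Figure D4:**
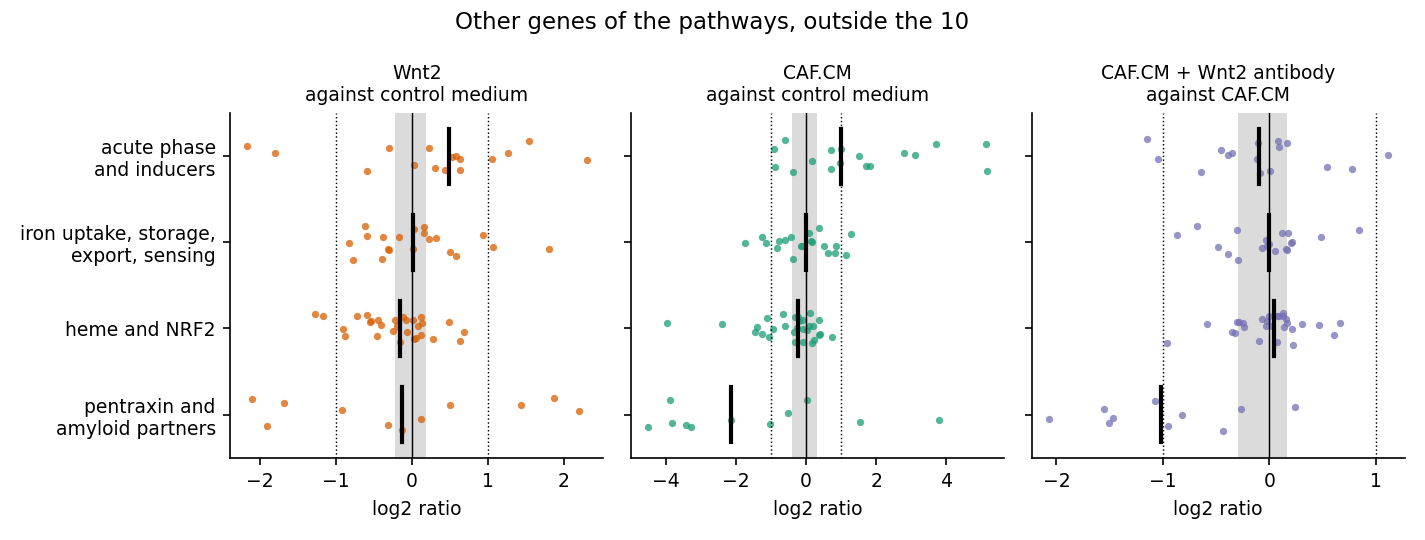
log2 ratio of every listed gene of the 4 pathway lists in the 3 comparisons, members left out, with 1 point per gene, a black bar for the list's median, dotted lines at 2-fold and a grey band for the middle 50% of all listed genes (the axes differ between panels). The acute phase list has its median at 1.00 and the pentraxin and amyloid partners at -2.15 for CAF.CM.

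The genes most alike in pattern to Lcn2 and Ptx3 were taken by the Euclidean distance over centred log2 CPM of the 4 libraries, among 12506 genes. For Lcn2 the nearest was the chemokine Ccl5, at a distance of 1.55, with 30.4 CPM with Wnt2, 3289 CPM with CAF.CM and antibody, 2746 CPM with CAF.CM and 26.5 CPM in control medium. Orm1 was among the 5 nearest, at 2.65, with the predicted genes Gm26870, Gm10800 and Gm10801. For Ptx3 the nearest was the lipoprotein lipase gene Lpl, at a distance of 0.75, with 283 CPM with Wnt2, 622 CPM with CAF.CM and antibody, 811 CPM with CAF.CM and 4096 CPM in control medium. It was followed by Chn2, the MHC class II invariant chain Cd74, the fatty acid carrier Fabp4 and Cd180.

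Other features of the libraries moved with the media, and their part in the differences above was not tested. Reads in listed genes came to 154399767 with Wnt2, 22791494 with CAF.CM and antibody, 25225220 with CAF.CM and 143071376 in control medium. Protein-coding genes held 80.1%, 72.4%, 75.8% and 81.2% of listed CPM in that order of libraries, and the nuclear RNA Malat1 held 1.76%, 3.86%, 2.85% and 1.38%. Of 14 dendritic cell markers 11 to 13 were listed per library, and they summed to 868 CPM with Wnt2, 1607 CPM with CAF.CM and antibody, 1764 CPM with CAF.CM and 3399 CPM in control medium. The integrin Itgax (CD11c), a defining marker, had 223, 30.3, 47.7 and 888 CPM in the same order, while Zbtb46 had 10.3, 21.2, 17.1 and 15.7 CPM. Cd74 held 1055 CPM of the control sum and 483 CPM of the CAF.CM sum. With CAF.CM 0 of 11 listed dendritic cell markers were higher and 2 lower, Itgax and Cd74 (median -0.19). With Wnt2 1 of 13 was higher and 5 lower (median -0.37), and with antibody 0 of 11 passed 2-fold (median -0.39). Macrophage and monocyte markers (10 of 11 listed) summed to 20097, 5714, 8599 and 28625 CPM, in that order of libraries. In control medium Ccr2 held 580 CPM of that sum, Adgre1 349 CPM and Cx3cr1 45.7 CPM, and most of it lay in other genes of the list. The list did not move as a whole. With CAF.CM 1 of 10 was higher and 5 lower (median -1.21), and with Wnt2 0 were higher and 3 lower (median -0.69). With antibody 0 were higher and 1 lower (median -0.69). The marker counts are to be read against the shares over all listed genes given above. The sums of the marker lists cover different genes, so their sizes do not compare amounts of the cell types. Fewer cells of a type and less RNA per cell cannot be told apart in these bulk libraries.

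Neutrophil granules are a known source of lipocalin-2, haptoglobin and pentraxin-3. Neutrophil markers (5 or 6 of 14 listed) summed to 1850 CPM with Wnt2, 136 CPM with CAF.CM and antibody, 195 CPM with CAF.CM and 871 CPM in control medium. Mmp8 held most of each sum, with 1489 CPM with Wnt2, 99.3 CPM with CAF.CM and antibody, 140 CPM with CAF.CM and 544 CPM in control medium. S100a8 had 11.8, 2.54, 4.11 and 4.64 CPM in that order. The granule genes Ltf, Camp, Ngp, Mpo and Elane were not listed in any library, and neither were S100a9 and Ly6g. No hepatocyte marker of 6 and no erythroid marker of 9 was listed. Fibroblast markers (4 to 7 of 10 listed) summed to 18.0 CPM with Wnt2, 66.2 CPM with CAF.CM and antibody, 40.2 CPM with CAF.CM and 16.3 CPM in control medium. The collagen gene Col5a1 held most of the CAF.CM sum, with 6.37 CPM with Wnt2, 49.1 CPM with CAF.CM and antibody, 23.6 CPM with CAF.CM and 5.12 CPM in control medium. Against control medium the CAF.CM log2 ratio was 4.33 for decorin, Dcn, 0.20 for Acta2, 0.07 for Pdgfrb and -2.67 for Postn. Col1a1, Lum and Pdgfra were not listed in any comparison. Col1a2 and Col3a1 were listed only for Wnt2 against control medium, and Postn was not listed for the antibody. The fibroblast sums therefore do not cover the same genes in each library. Mast cell and basophil markers (1 or 2 of 7 listed) summed to 1.34 to 11.3 CPM.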

How the data were processed

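Libraries were made from 1 ug of total RNA, per the labels' protocols. The submitters' processing notes name the aligner STAR 2.4.2a, the quantifier RSEM 1.2.29, edgeR, and the builds mm10 and GRCm38.p5; their settings are not given here. The authors deposited normalized CPM in 1 table per comparison, beside log2 fold changes and p-values, per the file headers. At least 99.9% of CPM values were whole multiples of 1 read's worth within 0.1 of a step, which gave the read counts. Control medium and CAF.CM values were identical in the 2 tables that hold them (12954 and 12848 genes).

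Log2 ratios used these reads, a prior count of 2 and the library sizes implied by the CPM. Intervals (95%) are exact conditional binomial for ratios and exact Poisson for levels. Members and lists were chosen with earlier results of these data known. All 10 members were named, with up to 4 genes per list and comparison with the largest ratios among those with at least 100 reads, plus others singled out after their values were seen. One gene that this rule names is not reported here. The calculation was tested on simulated data. Annotation was GENCODE M21. Python 3.11.15, scipy 1.17.1, R 4.3.3, edgeR 4.0.16 and DESeq2 1.42.0 were used, the last 2 only for alternative scalings.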

Additional observations from a re-analysis of the deposited data

How the results depend on the processing

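Over 203 recomputed log2 ratios of the members, under other scalings (total reads, DESeq2 size factors, TMM), prior counts of 0.5 and 5, the authors' deposited fold changes and a minimum of 100 reads, 0 changed sign and 0 crossed 2-fold, and 171 stayed within their counting interval. The minimum of 100 reads could not move a member ratio, since every listed member had at least 100 reads in each comparison. Hp with antibody lay close to the threshold, with a log2 ratio of -1.0002 under TMM. Scaling moved the median of all genes by at most 0.06. At a threshold of 1.5-fold, 2 of the 9 members listed were higher and 4 lower with Wnt2. With CAF.CM 7 of 10 were higher and 1 lower, and with antibody 3 of 10 were higher and 2 lower. Over all listed genes, 968 were higher and 1049 lower of 13120 for Wnt2. The genes higher and lower numbered 1838 and 2387 of 13329 for CAF.CM, and 575 and 1400 of 13072 for the antibody. With a minimum of 100 reads the antibody comparison had 55 higher and 293 lower genes, since fewer genes were counted. Adding reads of its listed pseudogene gave Ftl1 levels of 7681 CPM with Wnt2, 13112 CPM with CAF.CM and antibody, 10985 CPM with CAF.CM and 9262 CPM in control medium. No paired analysis was possible because each group has 1 library. Low counts limit Hamp and Ptx3 most.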
